A study of Mus musculus with 2 samples.

Results

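The Mir29 family of mouse has 4 genes, Mir29a, Mir29b-1, Mir29b-2 and Mir29c, in pairs on chromosomes 6 and 1. They were taken by name from GENCODE M21, the annotation on which the deposited counts rest, and are 4 of 2202 microRNA genes counted. The counts come from 2 small RNA libraries, replicates 1 and 2 of a single group, prepared from the hippocampus of wild-type (WT) female mice of strain B6NCrl, labelled as controls. The descriptions call the tissue a hippocampal layer without naming which, and leave age uncollected and developmental stage unknown. The labels number the libraries biological replicates 1 and 2, each with technical replicate number 1. Both libraries share a donor record under separate biosample records, and whether they come from separate animals is not stated, so their spread may be technical. They followed different adapter-trimming documents, and biosample and trimming cannot be told apart.

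MicroRNAs are short RNAs cut from hairpin precursors; bases 2 to 8 of the mature strand, the seed, pair with target messages and lower their stability and translation. MicroRNAs of the Mir29 family are known to repress collagens and other matrix proteins, the DNA methyltransferase Dnmt3a, and pro-apoptotic BH3-only proteins of neurons. In brain the family is known for rising after birth and for expression in astrocytes as well as in mature neurons. No younger tissue was measured, so that rise was not tested here.

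The mature sequences from RefSeq (GRCm38.p6) are shown first because they decide which reads could be counted for which gene. All 4 genes and both arms of each were matched, and each RefSeq hairpin was identical in sequence and place to the GENCODE M21 hairpin. The 3p arms, with the seed in capitals, read:
miR-29a-3p: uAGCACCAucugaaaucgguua
miR-29c-3p: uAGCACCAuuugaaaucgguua
miR-29b-3p: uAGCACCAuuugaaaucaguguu
The seed AGCACCA was the same in all of them. It occupied bases 2 to 8 in 4 of 1738 mature entries of the RefSeq table (0.230%), which were these genes alone, with Mir29b-1 and Mir29b-2 giving the identical mature strand. Counting bases from the 5′ end, miR-29a-3p and miR-29c-3p differed at 1 of 22 positions, C10U. From miR-29c-3p to miR-29b-3p there were 3 differences, G18A, U21G and A22U, after 17 identical bases. The miR-29b-3p strand ends in AGUGUU, a hexamer known to direct miR-29b into the nucleus. That ending was found in 3 of 1738 mature entries (0.173%), the third being from Mir92b.

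The 5p arms differ more and are shown because a read from them can name its gene even for the Mir29b copies. With bases 2 to 8 in capitals they read:
miR-29a-5p: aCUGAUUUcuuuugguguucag
miR-29b-1-5p: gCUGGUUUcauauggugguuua
miR-29b-2-5p: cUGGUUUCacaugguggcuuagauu
miR-29c-5p: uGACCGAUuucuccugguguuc
The annotated 5p arms of the Mir29b copies start 1 base apart. Aligned over 21 bases, and counted from the first base of miR-29b-2-5p, they had 2 differences from the Mir29b-1 arm to the Mir29b-2 arm, U10C and U18C. Each 5p arm became unique among M21 hairpins within 9 to 11 bases of its first base.

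The hairpins, with the 3p arm in capitals, show how much of each gene lies outside the shared arm. Mir29a (chr6:31062660-31062747, mm10) and Mir29b-1 (chr6:31063023-31063093) lie on the minus strand with 275 bases between them. Mir29b-2 (chr1:195037040-195037120) and Mir29c (chr1:195037547-195037634) lie on the plus strand, 426 bases apart.
Mir29a: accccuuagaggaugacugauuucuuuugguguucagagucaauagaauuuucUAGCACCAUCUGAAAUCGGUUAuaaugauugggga
Mir29b-1: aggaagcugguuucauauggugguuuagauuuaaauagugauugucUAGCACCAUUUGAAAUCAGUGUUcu
Mir29b-2: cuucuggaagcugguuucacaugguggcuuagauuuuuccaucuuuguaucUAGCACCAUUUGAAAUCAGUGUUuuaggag
Mir29c: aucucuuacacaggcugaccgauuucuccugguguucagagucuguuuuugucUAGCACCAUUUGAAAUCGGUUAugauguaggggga
In M21 the chromosome 1 pair lay within an exon of the noncoding transcript A330023F24Rik-204 on the same strand and within an exon of the Cd46 transcript Cd46-203 on the opposite strand. On chromosome 6, no annotated gene other than the microRNA overlapped Mir29a, and the noncoding gene Gm27019 overlapped the first 2 bases of Mir29b-1.

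In the deposited counts a read with more than 1 place in the genome belongs to no gene, so the shared stretches bear on each level. The longest stretch that Mir29a shared with any hairpin elsewhere was 14 bases, against 22 bases for Mir29c and 25 bases for Mir29b-1 and Mir29b-2. A read starting at the first base of miR-29a-3p was unique from 11 bases on, and one of miR-29c-3p from 18 bases on. A read of miR-29b-3p was unique only from 24 bases on, 1 base past the annotated 23-base strand, where the hairpins differ by C24U between Mir29b-1 and Mir29b-2. A full-length miR-29b-3p read therefore matches both copies. The counts of Mir29b-1 and Mir29b-2 can hold reads of their 5p arms and loops and 3p reads that run past the annotated strand at either end, and are lower bounds. This match was exact and among annotated hairpins only, and the number of mismatches allowed in alignment was not stated in the labels or notes.

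**Figure D1:**
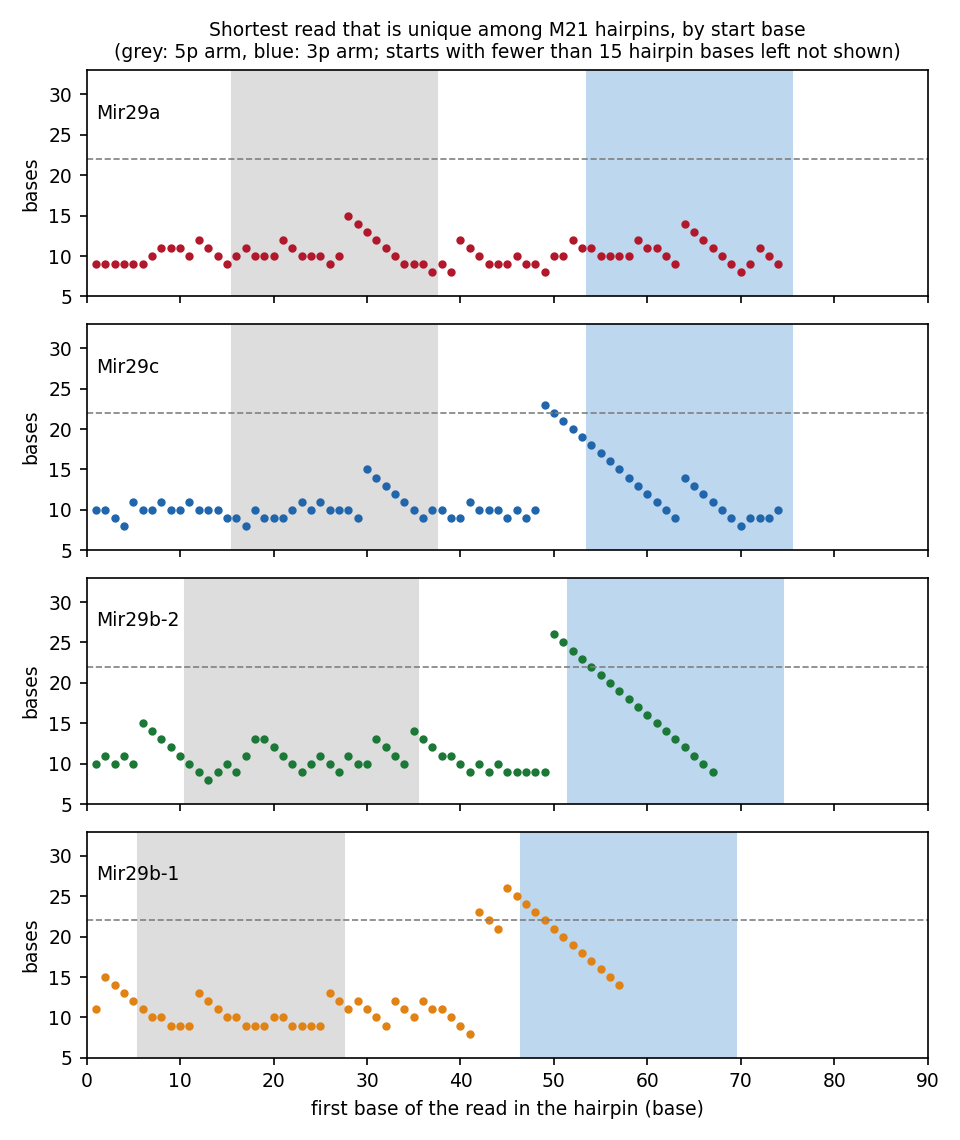
Shortest read length, in bases, at which a read starting at each base of the hairpin (horizontal axis) is unique among M21 hairpins, for the 4 members, with the 5p arm shaded grey, the 3p arm blue and a dashed line at 22 bases. Mir29a stays far under the line throughout, Mir29c crosses it just before its 3p arm, and both Mir29b copies exceed it at the start of theirs.

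Nearly all counts of the family came from Mir29a. Levels are given in CPM, the gene's counts on its own strand scaled to 1000000 such counts over all microRNA genes, with 6713867 counts in replicate 1 and 5901107 in replicate 2. Mir29a had 71304 counts (10620 CPM) in replicate 1 and 49202 counts (8338 CPM) in replicate 2, a mean of 9479 ± 1614 CPM (SD, n = 2). By counted reads it was the 22nd most abundant gene in replicate 1 and the 23rd in replicate 2. Reads mapping to several places, 43.9% and 45.9% of all reads, belong to no gene. Genes that lose such reads are lower bounds, so these ranks are not ranks of the microRNAs made.

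Mir29c stood far under Mir29a although its mature strand differs by a single base. Mir29c had 2149 counts (320 CPM) in replicate 1 and 1045 counts (177 CPM) in replicate 2, a mean of 249 ± 101 CPM (SD, n = 2). The Mir29b copies, read as lower bounds, came last. Mir29b-2 had 1025 counts (153 CPM) and 639 counts (108 CPM), a mean of 130 ± 31.4 CPM. Mir29b-1 had 378 counts (56.3 CPM) and 370 counts (62.7 CPM), a mean of 59.5 ± 4.52 CPM. The order Mir29a, Mir29c, Mir29b-2, Mir29b-1 held in both libraries, and the ranges of neighbours in this order did not overlap. With 2 libraries no test between members was made, and for the Mir29b copies the order is of the countable reads, not of the microRNA they make.

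**Figure D2:**
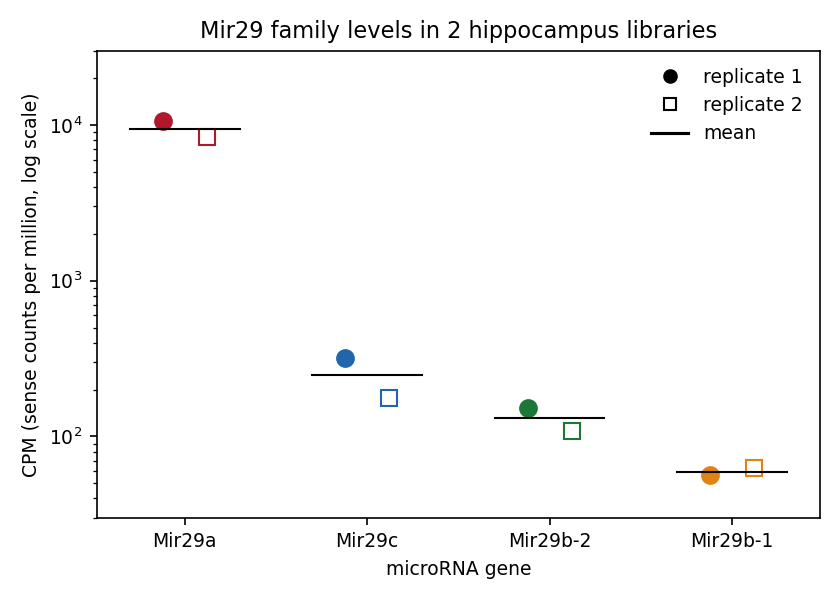
CPM on a log axis for each member in replicate 1 (filled circles) and replicate 2 (open squares), with the mean as a line. Mir29a lies at 10620 and 8338 CPM, and the other members lie between 56.3 and 320 CPM.

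In total the family held 11149 CPM in replicate 1 and 8686 CPM in replicate 2, a mean of 9918 ± 1742 CPM (SD, n = 2), or 1.11% and 0.869% of all counts on microRNA genes. Mir29a supplied 95.3% of the family's counts in replicate 1 (exact Clopper-Pearson 95% interval 95.1 to 95.4) and 96.0% in replicate 2 (95.8 to 96.2). The chromosome 1 pair supplied 4.24% (4.10 to 4.39) and 3.29% (3.13 to 3.44). These intervals cover counting error only. Since reads of miR-29b-3p are missing from both pairs, the shares describe counted reads.

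Ratios between members within a library need no scaling. Those over Mir29b-1 or Mir29b-2 are ratios of counted reads. The reads missing from these copies could change their size and turn their direction, which their intervals do not cover. Mir29a exceeded Mir29c 33.2-fold in replicate 1 (exact 95% interval 31.8 to 34.7) and 47.1-fold in replicate 2 (44.3 to 50.1). Within the chromosome 1 pair, Mir29c exceeded Mir29b-2 2.10-fold (1.95 to 2.26) and 1.64-fold (1.48 to 1.81). Between the Mir29b copies, Mir29b-2 exceeded Mir29b-1 2.71-fold (2.41 to 3.06) and 1.73-fold (1.52 to 1.97). Each ratio of counted reads kept its direction and moved between the libraries by more than counting error.

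In counted reads, genes of one pair did not keep a constant ratio, and each pair holds a Mir29b copy, a lower bound. Mir29a over its neighbour Mir29b-1 was 189 in replicate 1 (170 to 209) and 133 in replicate 2 (120 to 148), a ratio 1.42 times larger in replicate 1 (counting interval 1.23 to 1.64). Mir29c over its neighbour Mir29b-2 was 1.28 times larger in replicate 1 (1.13 to 1.45). Across pairs, Mir29c over Mir29b-1 changed most, by 2.01 times (1.71 to 2.37). Mir29a over Mir29b-2 changed least of the 6 ratios, being 1.11 times larger in replicate 2 (1.00 to 1.22).

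**Figure D3:**
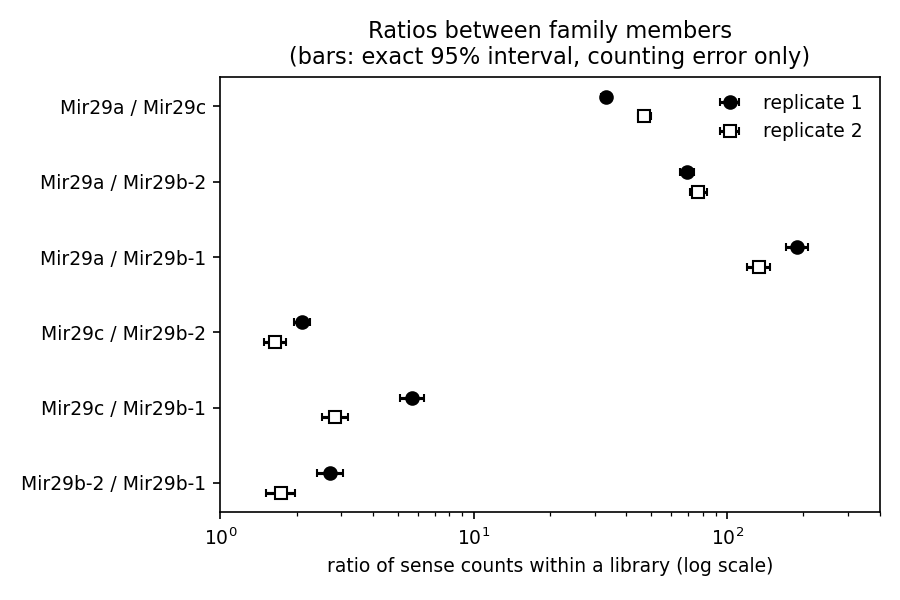
Ratio of sense counts (log axis) for the 6 pairs of members in replicate 1 (filled circles) and replicate 2 (open squares), with exact 95% intervals for counting error; the Mir29b copies are lower bounds. The Mir29a ratios lie between 33.2 and 189, and all others between 1.64 and 5.69.

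Between the libraries, Mir29a, Mir29b-2 and Mir29c were lower in replicate 2. Each difference is the log2 ratio of counts, replicate 2 over replicate 1, with 0.5 added to both counts and with TMM scaling (edgeR's trimmed mean of M values). Its standard error (SE) covers counting only. A gene is called lower or higher when it passed a 2-sided Fisher exact test after Benjamini-Hochberg adjustment over 466 genes at 0.05 and kept its sign under 3 scalings. The test compares these libraries, not conditions, and calls were common: 57.5% of tested genes passed, 35.6% were called lower in replicate 2 and 18% higher. These shares rest on a test of raw totals, under which the median log2 ratio was -0.18. Under TMM, 236 of the 466 genes lay below 0. Mir139, the gene with the highest mean CPM, had 87249 CPM in replicate 1 and 188348 CPM in replicate 2. Its part in the lean towards lower calls was not tested. Against that background, 3 of 4 members called lower is no result about the family.

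Mir29c had the largest difference of the 4, with a log2 ratio of -0.69 (SE 0.05, Fisher exact test, adjusted p = 1.02e-57). Mir29b-2 had a log2 ratio of -0.33 (SE 0.07, Fisher exact test, adjusted p = 2.01e-11). For Mir29a the log2 ratio was -0.19 (SE 0.01), and its p was too small for the software to represent. Mir29b-1 had a log2 ratio of 0.32 (SE 0.11) and did not pass (Fisher exact test, adjusted p = 0.21). The Fisher test compares shares of the raw totals, so its p-values do not belong to the TMM ratios and SEs printed beside them. On raw totals the log2 ratios were -0.85 for Mir29c, -0.50 for Mir29b-2, -0.35 for Mir29a and 0.16 for Mir29b-1. The TMM ratios themselves were not tested, so that Mir29b-1 did not pass holds for raw totals only. Over the 466 genes the median log2 ratio was -0.02 under TMM and -0.18 under totals, and their SD was 0.82 under TMM, so each member lay within 1 SD of the median.

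**Figure D4:**
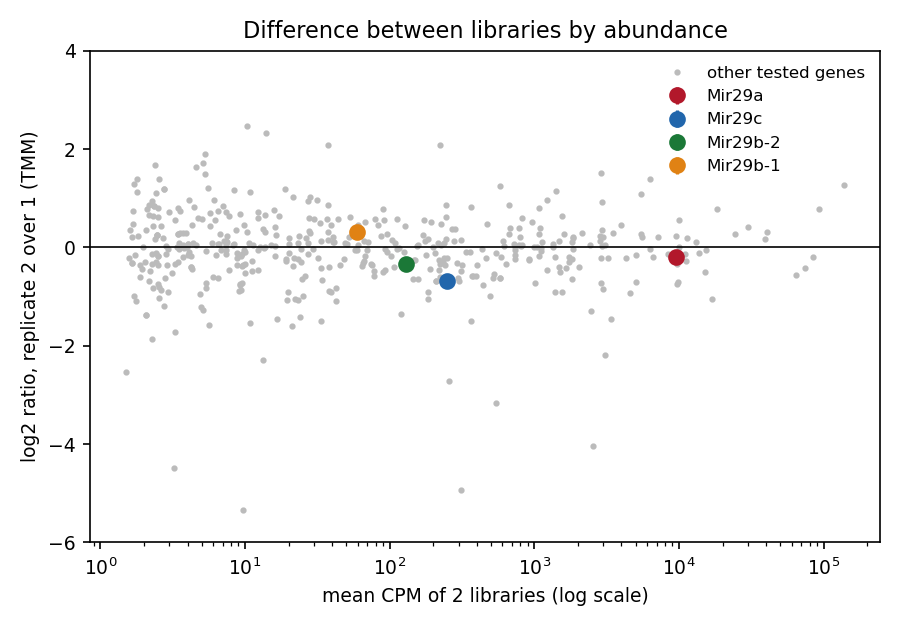
Log2 ratio of replicate 2 over replicate 1 under TMM against mean CPM (log axis) for the 466 tested genes, with the family in colour and bars of 1 counting SE. Mir29a, Mir29b-2 and Mir29c lie under 0 and Mir29b-1 above it, all within the SD of 0.82 from the median.

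Markers of other cell types differed between the libraries as well. Over all tested genes 57.5% passed, 35.6% were called lower in replicate 2 and 18% higher, and no list was tested against these shares. The endothelial marker Mir126a had 6191 CPM in replicate 1 and 2897 CPM in replicate 2. The oligodendrocyte list (Mir219a-1, Mir219a-2, Mir338), with 2 of 3 genes lower in replicate 2 and none at 0, summed to 7078 and 3193 CPM. Of 5 microglia and leukocyte genes, 4 were lower and 1 higher in replicate 2, none was at 0, and the list summed to 2025 and 2238 CPM. That sum was led by Mir150, the gene called higher, with 1303 and 1815 CPM. The part of these cell types in the differences of the family was not tested. In bulk tissue, fewer cells of a type and less RNA per cell cannot be told apart. The neuron list, 13 genes led by Mir132, summed to 29387 and 30425 CPM, with Mir124a-2 at 0. Of its 9 tested genes 3 were lower in replicate 2, 5 higher and 1 passed with a sign that depended on the scaling. The Mir124a genes shared 32 bases with another copy, and Mir9-1 and Mir9-2 shared 33 bases. Reads lying within such stretches belong to no gene, so these genes and the list sum are lower bounds. The 0 of Mir124a-2 thus does not show that its microRNA was absent. The astrocyte-linked list of 13 genes, which contains the family and is led by Mir23b, summed to 53049 and 55430 CPM, with 5 genes lower, 4 higher, 1 of scaling-dependent sign and 3 that did not pass. Its numbered copies of Mir24, Mir26a and Mir29b shared 25 to 30 bases with a hairpin elsewhere, so this sum is a lower bound too. Mir219a-1 and Mir219a-2 shared 22 bases, so the oligodendrocyte sum is a lower bound as well. Both erythrocyte genes, Mir451a and Mir486, were lower, with a sum of 72.2 and 31.7 CPM. Of 3 choroid plexus and ependyma genes 2 were lower and 1 higher, with a sum of 2016 and 1728 CPM. That sum was led by Mir204, the gene called higher, with 1532 and 1653 CPM. Mir34c had 451 and 61.2 CPM, and Mir449a had 32.6 and 13.9 CPM. Markers of embryonic stem cells were near 0, at 3.13 and 0.339 CPM over 9 annotated genes, of which 4 had no count.

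Other microRNAs known as abundant in postnatal brain were called in both directions. Of a list of 19, 8 were lower in replicate 2, 7 higher, 3 passed with a sign that depended on the scaling, and 1 did not pass. Their median log2 ratio was 0.04, beside -0.02 over all tested genes, of which 35.6% were called lower and 18% higher. The family's own median was -0.26.

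The families most like Mir29, with lettered paralogues and numbered copies in several loci, also held abundant genes beside low numbered copies. Mir26b, of the Mir26 family in introns of Ctdsp phosphatase genes, had 3766 and 7195 CPM, whereas the numbered copies Mir26a-1 and Mir26a-2 had means of 10.4 and 27.3 CPM. In the Mir30 family the lettered Mir30d had 7085 and 7303 CPM, and the numbered Mir30c-1 and Mir30c-2 had means of 190 and 339 CPM. The lettered Mir30b, which shared 18 bases, had a mean of 112 CPM and lay under both numbered copies. In the Mir23, Mir27 and Mir24 clusters Mir23b had 23423 and 25463 CPM, and the copies Mir24-1 and Mir24-2 had means of 26.2 and 28.0 CPM. Over the 19 genes of the 4 families, the 9 that shared 22 or more bases with a hairpin elsewhere, Mir29c and both Mir29b copies among them, had mean levels from 10.4 to 339 CPM (median 59.5). The 10 that shared fewer, Mir29a among them, ranged from 74.9 CPM for Mir27a to 24443 CPM for Mir23b (median 4155). The ranges overlapped, and genes of a family share sequence and are not independent, so this is a description without a test. The 22-base stretch of Mir29c starts before its 3p arm, and miR-29c-3p reads were unique from 18 bases on. Outside these families, Mir128-1 shared 23 bases and had a mean of 6248 CPM, and Mir138-2 shared 24 and had 2881 CPM. Both were picked after their values were seen. Over all genes, 6.69% of 1032 sharing 22 or more bases reached a mean of 10 counts, against 33.9% of 1170 sharing fewer. These classes may differ in more than shared sequence, and the part of uncounted reads in this contrast was not tested.

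**Figure D5:**
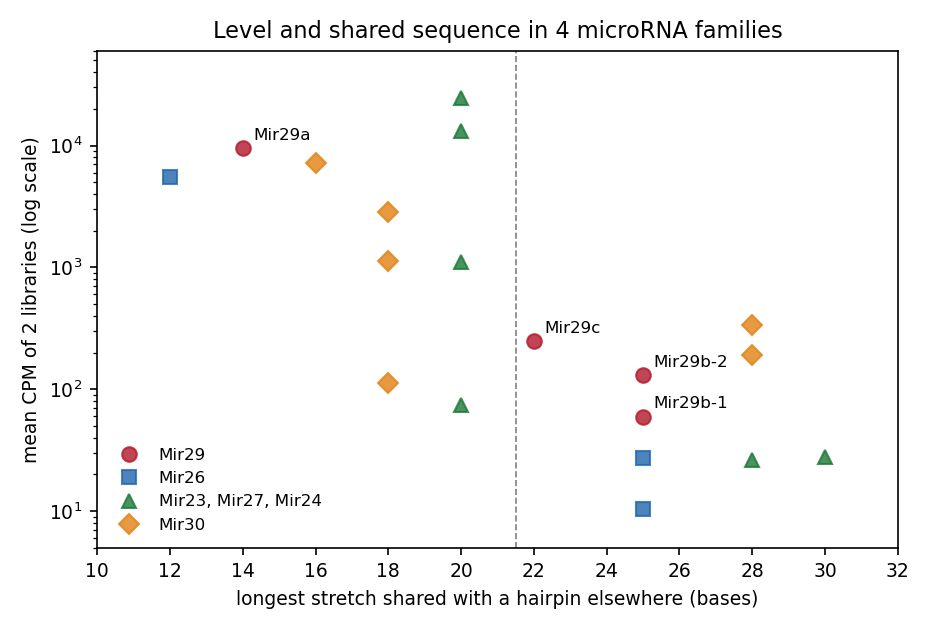
Mean CPM (log axis) against the longest stretch, in bases, shared with a hairpin elsewhere, for 19 genes of 4 families, with a dashed line between 21 and 22 bases. Mir29a lies among the abundant genes on the left, and the other members of its family lie right of the line at 59.5 to 249 CPM.

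Summed over its members, the Mir26 family had 3789 CPM in replicate 1 and 7246 CPM in replicate 2, with all 3 members called higher, against 18% of all tested genes. The Mir30 family had 11816 and 11774 CPM, with 3 members called lower and 1 higher, and the Mir23, Mir27 and Mir24 genes had 38111 and 39498 CPM, with 2 lower and 1 higher. Mir29 summed to 11149 and 8686 CPM. Under TMM the log2 ratios of these sums were 1.10 for Mir26, 0.16 for Mir30, 0.21 for Mir23, Mir27 and Mir24, and -0.20 for Mir29. The Mir30 sum thus leaned higher under TMM although 3 members were called lower. A call takes only its sign from the scalings, and Mir30b was called lower at a log2 ratio of -0.04 (SE 0.08). Whether the families' differences differ from each other was not tested, there being 1 library on each side.

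Genes with levels nearest to each member were found by distance in log2(CPM + 1) over the 2 libraries, which describes likeness of level only. Nearest to Mir29a was Mir433, with 11407 and 8041 CPM, then Mir99b, with 10478 and 9425 CPM. Mir29c was nearest to Mir15a (280 and 164 CPM) and Mir15b (282 and 197 CPM). For Mir29b-2 these were Mir495 and Mir210, and for Mir29b-1 Mir493 and Mir25.

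Counts on the opposite strand were 0 for all 4 members in both libraries, which allows up to 0.447 CPM in replicate 1 and 0.508 CPM in replicate 2. Ignoring strand gave the members the same counts. At the chromosome 1 pair, this opposite strand is that of Cd46.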

How the data were processed

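The authors deposited whole-number read counts per microRNA gene on mm10 with GENCODE M21, according to notes that came with the files. The sources used here name neither aligner nor counting program. RNA under 30 nt was sequenced, per the labels. Each library has 3 count columns, read from their values as without strand, sense and antisense. Sense counts were used, and the 4 read classes (unmapped, several places, outside genes, ambiguous) were left out of library sizes; reads mapping to several places were 43.9% and 45.9% of 15794475 and 14300757 reads.

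All 2202 identifiers matched M21. Shared stretches were exact matches on either strand to hairpins at other places. TMM (edgeR 4.0.16) and DESeq2 1.42.0 size factors used all genes. Tests covered the 466 genes whose mean count reached 10, with scipy 1.17.1, and were tested on simulated data. Members, lists and rules, including the named genes (members, the 2 nearest genes to each, and 3 comparison families), were chosen with earlier results of these data known. p-values measure counting error between 2 libraries.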

Additional observations from a re-analysis of the deposited data

How the results depend on the processing

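Each log2 ratio of the 4 members kept its direction under library totals, DESeq2 size factors, a minimum mean of 50 counts, no filter on low counts, counts without strand, 2 counts added, a restriction to genes sharing fewer than 18 bases plus the members, and, chosen after seeing the data, TMM over tested genes only. TMM used all genes whatever the filter, so the minimum mean of 50 counts and the absence of a filter could not move a ratio. The exact test uses raw totals, so scaling and added counts cannot move its p. Under the other settings each member stayed on its side of the threshold. Shares of family counts have no informative alternative: the members' counts are the same without strand, and leaving out 1 of 2 libraries moves any mean by a fixed part of its SD. Levels depend on the denominator: scaled to all reads in the file in place of microRNA gene counts they were 3978 CPM for Mir29a, 105 for Mir29c, 54.8 for Mir29b-2, 24.9 for Mir29b-1 and 4162 for the family, and without Mir139 in the total Mir29b-1 had 69.5 CPM. The other levels moved by less than 1 SD without Mir139 and without strand. Leaving out a library leaves the other library's value, and no difference between libraries can then be computed. No paired analysis was possible because the labels give 1 group. Depth limits Mir29b-1 most, with 378 and 370 counts.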
